A study of Fagopyrum tataricum with 9 samples.

Results

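Class III peroxidases are the secreted, heme-containing peroxidases of plants, and 99 gene models of Tartary buckwheat were taken as members of this family out of 31839 gene models with a deposited description, within 33931 genes in all. A gene model was a member where the name of its Swiss-Prot match began with "Peroxidase" and a number or a letter-number code, or held "cationic peroxidase" or "lignin-forming anionic peroxidase". The rule found 100 models, and 1 of them was set aside because its match, OVEREXPRESSOR OF CATIONIC PEROXIDASE 3, is a homeobox protein. Gene names below are those of the best Swiss-Prot matches, not of characterised buckwheat enzymes, so several genes carry the same name and are told apart by their identifiers.

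Expression had been measured by RNA sequencing in whole seeds of MIQIAO 1, an easily dehulled variety of Tartary buckwheat (Fagopyrum tataricum), at 3 stages with 3 libraries each. The stages were green fruit (13 days post anthesis), discoloration (19 days) and initial maturity (25 days). Days and stage names stand apart in the labels, and each day is given here to the stage of the same rank. The labels state that 1 individual gave the seeds of all stages and that 3 plants served as replicates. No label ties a replicate number to a plant, so p-values reflect variation among the libraries alone, and this variation may be technical.

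Class III peroxidases use hydrogen peroxide to oxidise small phenolic molecules in the cell wall and the vacuole. In the wall they couple monolignols (the building blocks of lignin), ferulic acid and the tyrosines of structural proteins, which stiffens the wall, and in another reaction cycle they release reactive oxygen, which loosens it. Plant genomes hold large families of them, often in tandem arrays, and they are known for their part in lignifying tissues such as xylem, hulls and seed coats. Laccases oxidise the same monolignols with oxygen in place of peroxide.

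The 9 libraries held 21585045 to 26777643 counts. Within each stage 1 library stood apart from a closely similar pair: green fruit library 1, discoloration library 1 and initial maturity library 2. The chi-square per degree of freedom of the counts over all genes was 1.98 to 3.54 within the 3 close pairs and 42.5 to 255 between a library standing apart and the pair of its stage. The members of a pair still differed beyond sampling noise, and each was used as its own library. Peroxidase genes were often low in the library standing apart. Against the mean of the close pair, 14 of the 35 peroxidase genes that could be tested lay more than 1 log2 unit lower in green fruit library 1 (against 11.4% of all genes tested), 10 in discoloration library 1 (against 5.74%) and 12 in initial maturity library 2 (against 8.15%). Markers of other tissues differed most clearly in green fruit library 1. The 22 models of lignifying cells match secondary wall cellulose synthases, some laccases, and COBRA-like, fasciclin-like arabinogalactan and xylem proteinase names. Their summed level was 171 CPM (counts scaled to library size and by TMM) in green fruit library 1 against 1198 and 1236 CPM in green fruit libraries 2 and 3. The 28 storage protein, oleosin and late embryogenesis models of maturing seed summed to 60190 CPM against 16930 and 17530 CPM. Green tissue markers summed to 1663 CPM against 3679 and 3890 CPM, and seed coat markers to 466.1 CPM against 671.5 and 692.5 CPM. Pollen and anther markers summed to 28.27 CPM against 19.12 and 19.7 CPM. The lignifying cell markers were not low in the others: they summed to 128.9 CPM in discoloration library 1 against 91.85 and 88.63 CPM in its pair, and to 36.2 CPM in initial maturity library 2 against 36.63 and 37.48 CPM. Their part in the peroxidase values was not tested.

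The family was dominated by a few names. The 99 genes matched 40 distinct Swiss-Prot entries, 74 of them Arabidopsis thaliana entries. Arabidopsis Peroxidase 57 was the best match of 23 genes, cationic peroxidase 1 of peanut of 10, Peroxidase 5 of grape of 10, Arabidopsis Peroxidase 72 of 5 and Peroxidase 4 of grape of 4. In the deposited annotation all 99 carried the terms peroxidase activity and heme binding, held by 134 and 466 of all gene models. The genes lay on all 8 chromosomes, from 5 on chromosome 3 to 23 on chromosome 6, where they made up 6.72 of every 1000 gene models, against 1.14 on chromosome 3. Of the genome build behind these positions the sources used here say nothing.

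Much of the family was not detected in these seeds. No count was found in any of the 9 libraries for 35 genes, which is 35 of 99 against 11.7% of all gene models. Another 18 genes had at least 1 count but fewer than 10 in every library, and 46 had 10 or more in some library. The filter on low counts left 35 genes to be tested, of 99, against 69.5% of all gene models. A further 11 genes had 10 or more counts in some library but did not pass the filter. The tested genes are those with enough RNA at some stage, so the counts below describe them and not the family.

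Many genes without counts lay in tandem arrays. With neighbouring starts within 50 kb taken as joined, 53 genes fell into 21 tandem groups, of which 25 had no count and 10 were tested, while of the 46 genes outside such groups 10 had no count and 25 were tested. All 5 genes of the array on chromosome 8 between 16735759 and 16794466 matched Peroxidase 57, and 4 of them had no count and the fifth had 2 counts over all libraries. The array of 4 on chromosome 6 (16893082 to 16963561), which matches Peroxidase 71, 60 and 57, had no count. The arrays of 3 on chromosome 4 (54144381 to 54206332, all Peroxidase 57) and on chromosome 7 (15993772 to 16026115, Peroxidase 3, 2 and 24) were likewise at 0. The 3 cationic peroxidase 1 genes on chromosome 1 (3383740 to 3409673) held 0 to 4 counts each. Of the 23 genes matching Peroxidase 57, 13 had no count and 1 was tested. The sources used here do not say whether reads that match several copies were counted, so values of near-identical neighbours are uncertain.

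**Figure D1:**
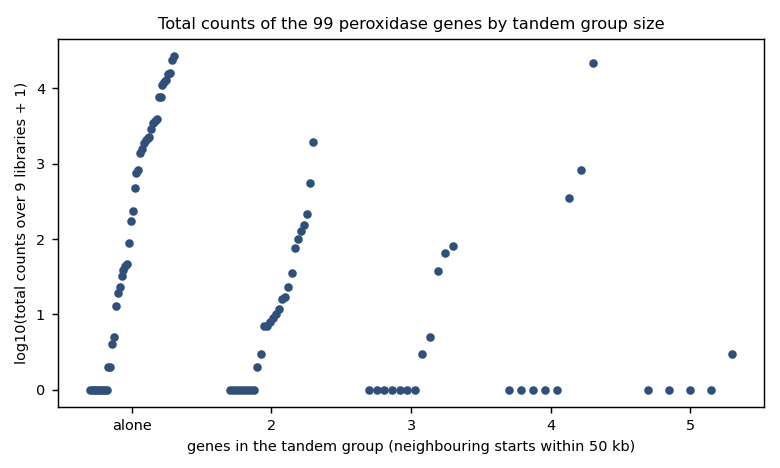
Total counts over the 9 libraries, as log10(count + 1) on the y axis, for each of the 99 peroxidase genes (points), by the number of genes in its tandem group on the x axis (sorted by value within each column). The 46 genes outside tandem groups reach the highest totals, and the array of 5 holds 4 genes at 0 and 1 gene with 2 counts.

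The RNA of the family became concentrated in fewer genes as seeds matured. On the scale of deposited FPKM (fragments per length of gene and per size of library), 29 genes averaged 1 FPKM or more in green fruit, 24 did at discoloration and 13 did at initial maturity (of 99, where 65.2%, 58.2% and 53.0% of all gene models did at these stages). The 5 highest genes held 55.2% of the family's summed mean FPKM in green fruit, 65.3% of it at discoloration and 91.9% at initial maturity. In single libraries the share of the 5 highest was 54.6% to 56.1%, 62.1% to 73.5% and 91.5% to 93.1% at these stages. The highest gene in green fruit was a Peroxidase 64 gene (FtPinG0009459200.01) with 195 ± 124 FPKM, followed by a cationic peroxidase 1 gene (FtPinG0003135700.01) with 179 ± 109 FPKM, Peroxidase 42 (FtPinG0006206300.01) with 121 ± 44.2 FPKM and Peroxidase 51 (FtPinG0002663500.01) with 119 ± 53.6 FPKM (SD, n = 3). The ranges of these means plus or minus their SD overlap in green fruit. At discoloration Peroxidase 12 (FtPinG0004087700.01) led with 152 ± 24.9 FPKM, above Peroxidase 42 with 89.3 ± 6.15 FPKM and Peroxidase 43 (FtPinG0002748600.01) with 73.1 ± 4.25 FPKM. At initial maturity the same Peroxidase 12 gene had 181 ± 61.8 FPKM, which was 46.6% of the family's summed mean FPKM. Peroxidase 42 followed with 113 ± 6.43 FPKM and a second Peroxidase 12 gene (FtPinG0002087800.01) with 41.1 ± 13.1 FPKM, and Peroxidase 43 came next with 13.5 ± 5.12 FPKM.

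**Figure D2:**
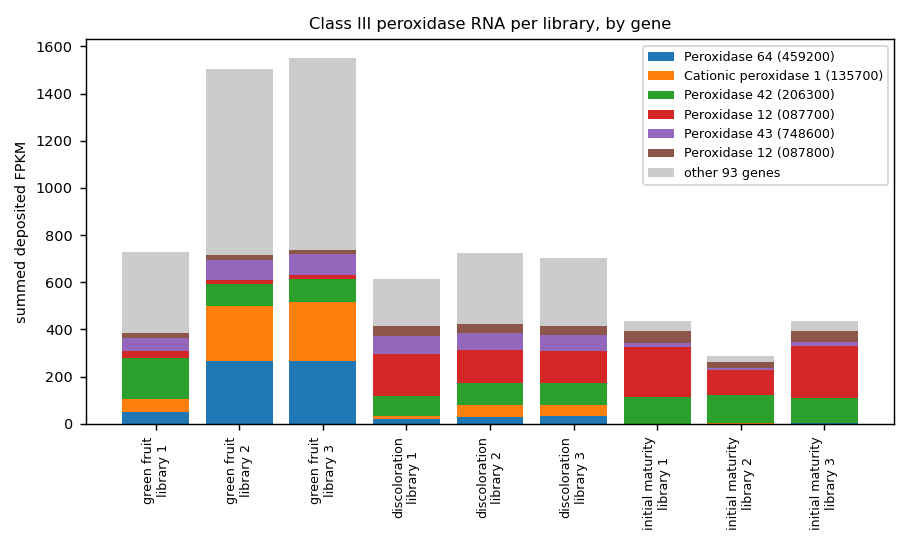
Summed deposited FPKM of the 99 peroxidase genes (y axis) in each of the 9 libraries (x axis), with the genes that ranked in the first 3 of any stage in colour and the other 93 in grey. Peroxidase 64 (FtPinG0009459200.01) and cationic peroxidase 1 (FtPinG0003135700.01) fill much of green fruit libraries 2 and 3, and Peroxidase 12 (FtPinG0004087700.01) and Peroxidase 42 (FtPinG0006206300.01) fill most of the initial maturity libraries.

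The summed level of the family depended on the scaling. As a share of raw counts it was 0.0806%, 0.171% and 0.177% in green fruit libraries 1, 2 and 3, then 0.0691%, 0.0824% and 0.0798% at discoloration, and 0.0464%, 0.0304% and 0.0465% at initial maturity. In TMM-scaled CPM the sum was 815 ± 241 in green fruit, then 892 ± 48.7 at discoloration and 602 ± 108 at initial maturity (SD, n = 3). TMM factors, by which library totals are scaled so that most genes keep their level, reached 1.83 in green fruit and ran from 0.825 to 0.885 at discoloration and from 0.635 to 0.709 at initial maturity. With library totals alone the median log2 fold change of all genes tested was -1.03 for discoloration against green fruit and -1.39 for initial maturity against green fruit, where it was -0.04 and -0.06 with TMM. Levels and fold changes below are TMM-scaled CPM and so relative to most other genes, and in bulk seed RNA fewer cells of a type and less RNA per cell cannot be told apart.

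Nearly all tested peroxidase genes changed over the 3 stages. Of 35, 31 passed edgeR's F test over the stages (background 65.4% of all genes tested). With library totals alone 31 also passed, 29 of them the same genes, but so did 87.2% of all genes tested. Among the 31 of the main fit the highest mean was in green fruit for 15 (48.4%, against 43.9% of all genes past the test), at discoloration for 12 (38.7%, against 17.7%) and at initial maturity for 4 (12.9%, against 38.3%). With library totals alone these counts were 20, 8 and 3, against 72.7% with the highest mean in green fruit, 11.02% with it at discoloration and 16.3% with it at initial maturity among all genes past the test.

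**Figure D3:**
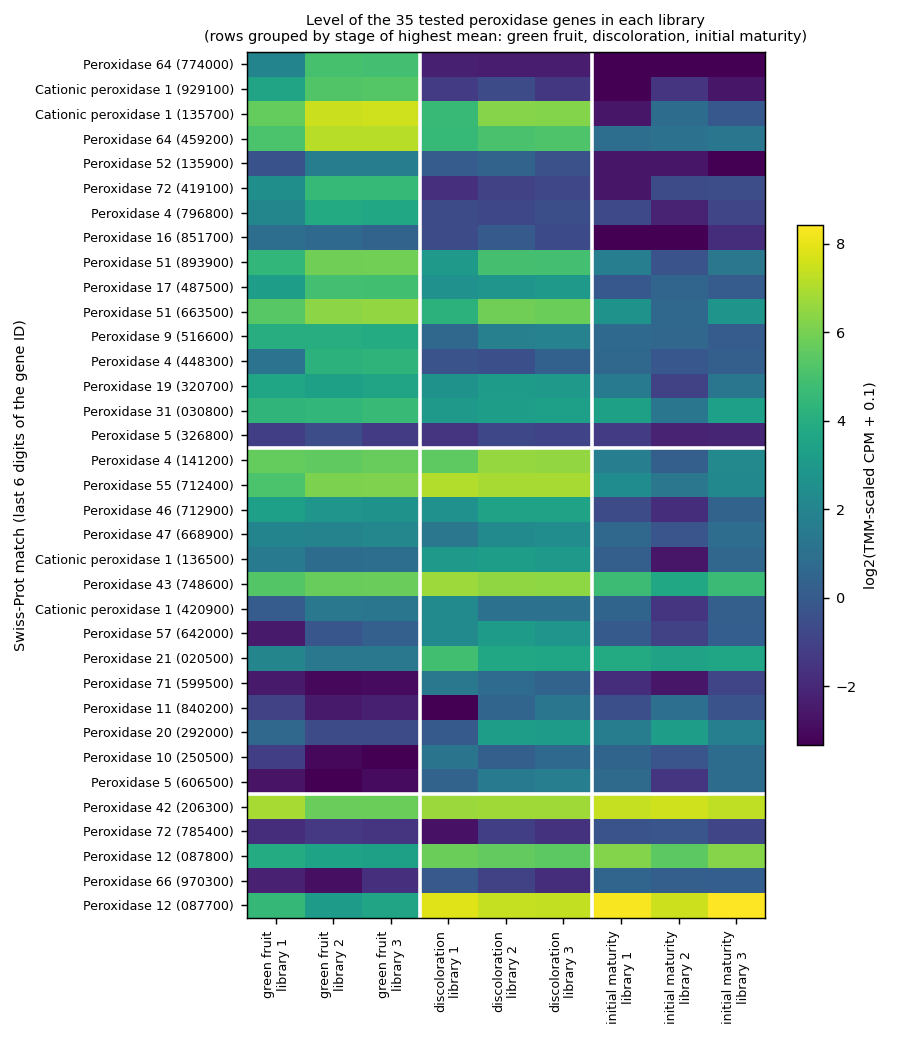
Heat map of log2(TMM-scaled CPM + 0.1) for the 35 tested peroxidase genes (rows) in the 9 libraries (columns); white lines part the stages and 3 blocks of rows, 16 with their highest mean in green fruit, 14 with it at discoloration and 5 with it at initial maturity. Green fruit library 1 is darker than libraries 2 and 3 in many rows of the upper block.

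For discoloration against green fruit, 12 of the 35 tested genes were higher and 9 lower in edgeR's quasi-likelihood test (background 39.5% of all genes called, 19.5% higher and 19.9% lower). The median log2 fold change was 0.10 over the tested peroxidase genes and -0.04 over all genes. The split turned with the scaling: with library totals alone 8 were higher and 15 lower (background 76% of all genes called, 17967 of 23631, 7.74% higher and 68.3% lower). Every discoloration library lay above every green fruit library in 10 genes and below in 10 (background 27.1% and 27.1%). Adding the counts of each close pair of libraries together left 11 genes called (6 higher, 5 lower, of 39 tested, background 11.7%), and leaving out the 3 libraries that stood apart gave 34 (18 higher, 16 lower, of 39, background 74.0%).

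For initial maturity against discoloration, 17 of 35 were lower and 0 higher (background 36.4% of all genes called, 20.4% lower and 16.0% higher). At an unadjusted p under 0.05, 2 genes were higher by edgeR and 2 by DESeq2, which also called 0 higher and 18 lower after adjustment. The median log2 fold change was -1.76 against -0.02 over all genes, and -1.69 with a gene at 0 counts set to its bound. All 3 initial maturity libraries lay below all 3 discoloration libraries in 19 genes and above in 3 (background 30.7% and 27.9%). The count of higher genes did not stay at 0 in every fit. It was 2 without green fruit library 1 (of 39, with 50.4% of all genes called in either direction). It was 3 without initial maturity library 2 (of 39, with 28.8% called) and 7 (beside 22 lower, of 39, background 67.6%) without all 3 libraries standing apart. Both of these fits count genes of a Peroxidase 5 array, described below, that the main fit did not test. With the close pairs added together 7 were lower and 0 higher (of 39, background 6.77%).

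For initial maturity against green fruit, 10 of 35 were higher and 20 lower (background 60.8% of all genes called, 28.3% higher and 32.5% lower), with a median log2 fold change of -1.59 against -0.06 over all genes. With library totals alone 4 were higher and 23 lower (background 82.6% of all genes called, 8.86% higher and 73.7% lower). No library of one stage overlapped the other in 10 higher and 22 lower genes (background 31.3% and 34.8%). These comparisons share libraries and are not independent of each other. The authors' deposited table gave an adjusted p under 0.05 to 17, 17 and 31 of the 99 genes in the 3 comparisons (15.3%, 22.8% and 24.5% of all gene models in the deposited table), of which 17, 16 and 27 were among those called here.

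**Figure D4:**
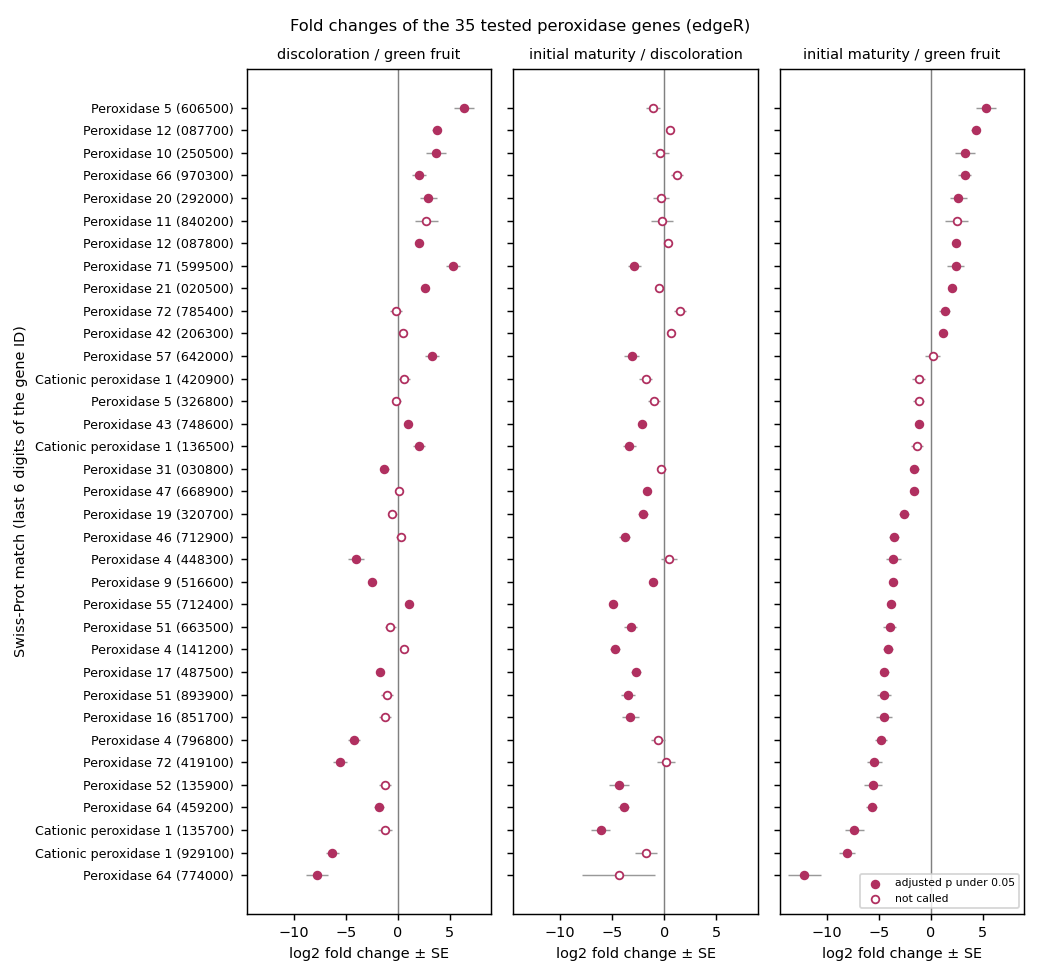
Log2 fold changes with SE (x axis) of the 35 tested peroxidase genes (rows, sorted by initial maturity against green fruit) in the 3 comparisons, as TMM-scaled edgeR estimates; filled points have an adjusted p under 0.05. In the middle panel 17 points left of 0 are filled and none right of it; with library totals alone the left and right panels shift by about the medians given in the text.

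Peroxidases whose Arabidopsis or tobacco namesakes act in lignin formation or are found in xylem walls (Peroxidase 2, 4, 17, 25, 47, 52, 64, 66, 71 and 72 of Arabidopsis and the lignin-forming anionic enzyme of tobacco) were called lower more often than higher. Of 16 such genes, 9 were tested. At discoloration against green fruit 2 were higher, 4 lower and 3 not called (background 19.5% higher and 19.9% lower). Initial maturity against discoloration gave 0 higher and 5 lower (background 16.0% and 20.4%), and initial maturity against green fruit gave 3 higher and 6 lower (background 28.3% and 32.5%). With library totals alone the last count was 1 higher and 6 lower (background 8.86% and 73.7%). Their summed level was 6.50, 6.70 and 7.79 CPM in initial maturity libraries 1, 2 and 3, against 58.2, 236 and 234 CPM in green fruit libraries 1, 2 and 3. It was low in green fruit library 1, where the markers of lignifying cells were low too. Of those 22 marker models, 18 were tested and 0 rose and 13 fell at initial maturity against green fruit, their summed level ranged from 36.2 to 37.5 CPM at initial maturity and from 171 to 1236 CPM in green fruit, and 1 model, a cellulose synthase A catalytic subunit 7 match, was at 0 in all libraries. Their part in the peroxidase values was not tested.

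Peroxidase 64 is known in Arabidopsis from the endodermis, where it takes part in building the lignin of the Casparian strip. FtPinG0009459200.01 (chromosome 1, 40455093 to 40456324, minus strand) had 23.4, 32.7 and 36.2 CPM at discoloration, against 34.1, 143 and 144 CPM in green fruit. Green fruit library 1 lay within the range of the discoloration libraries. The gene fell at discoloration against green fruit by 1.80 ± 0.46 on the log2 scale (edgeR adjusted p = 0.013; SE, here and below, is the size of the log2 fold change over the square root of its F). Without discoloration library 1 the adjusted p was 0.055, and with the close pairs added together it was 0.136. At initial maturity it had 1.78, 2.02 and 2.38 CPM, below every earlier library, and against discoloration it fell by 3.90 ± 0.53 on the log2 scale (edgeR adjusted p = 0.000937).

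The other tested Peroxidase 64 gene (FtPinG0005774000.01, chromosome 6, 44788024 to 44789608, minus strand) had almost all its counts in green fruit. It had 2, 2 and 2 counts at discoloration and 0, 0 and 0 at initial maturity, against 141, 1576 and 1160 in green fruit. The log2 fold change of discoloration against green fruit was -7.79 ± 1.03 (edgeR adjusted p = 0.0013). Its level at initial maturity was at least 362-fold lower than in green fruit, with the 3 libraries of initial maturity set to a floor of 3 counts in all. Without green fruit library 1 the edgeR adjusted p of initial maturity against discoloration was 0.0235, where it was 0.359 with all libraries, at counts too few for a fold.

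Peroxidase 72, which takes part in lignin formation in Arabidopsis stems, was matched by 2 tested genes that went apart. FtPinG0005419100.01 had 0.204, 0.400 and 0.467 CPM at discoloration, against 5.75, 23.1 and 23.1 CPM in green fruit, a log2 fold change of -5.57 ± 0.70 (edgeR adjusted p = 0.000442), and stayed low with 0.0637, 0.569 and 0.580 CPM at initial maturity. FtPinG0000785400.01, given here after its values were seen, was higher at initial maturity, with 0.701, 0.758 and 0.451 CPM against 0.193, 0.286 and 0.255 CPM in green fruit. Its log2 fold change was 1.36 (edgeR adjusted p = 0.0477) and 0.02 with library totals alone, and its adjusted p was above 0.05 when any 1 of 8 libraries was left out, the exception being discoloration library 1, and 0.18 with the close pairs added together.

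Peroxidase 52, an Arabidopsis stem lignin enzyme by its known role, was matched by FtPinG0003135900.01 on chromosome 5 (8545362 to 8546447). It had 1, 1 and 0 counts at initial maturity, against 25, 143 and 120 in green fruit and 19, 28 and 14 at discoloration. The initial maturity libraries lay below all others, and summed counts gave a ratio of 0.0184 to green fruit (95% counting interval 0.00222 to 0.0670, counting error only; edgeR adjusted p = 0.00053). Discoloration against green fruit was not called (log2 fold change -1.22 ± 0.57, edgeR adjusted p = 0.117) but was called without green fruit library 1 (-1.63, adjusted p = 0.00318) and with library totals alone (-2.26, adjusted p = 0.00782).

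Peroxidase 71, known in Arabidopsis from lignin formation and from responses to cell wall damage, was 1 of 2 lignin-type genes past the F test with their highest mean at discoloration. The other, Peroxidase 47 (FtPinG0006668900.01), had 2.40, 4.84 and 5.33 CPM at discoloration, against 3.82, 3.71 and 4.21 CPM in green fruit, which it overlapped. FtPinG0009599500.01 (chromosome 6, 23616013 to 23618247) had 49, 37 and 26 counts at discoloration, against 3, 1 and 1 in green fruit. It stood at 2.50, 1.64 and 1.22 CPM there, above every green fruit library, with a log2 fold change of 5.29 ± 0.69 (edgeR adjusted p = 0.000537). In the oldest seeds it had 0.191, 0.0632 and 0.451 CPM, below every discoloration library, and the log2 fold change was -2.90 ± 0.63 (edgeR adjusted p = 0.00714; 0.0727 with the close pairs added together). Initial maturity against green fruit, 2.39 ± 0.81 (edgeR adjusted p = 0.0288), overlapped and had an adjusted p of 0.0918, 0.0808 and 0.185 without green fruit library 2, green fruit library 3 and initial maturity library 3, 0.209 with library totals alone and 0.137 with the close pairs added together.

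Peroxidase 66 (FtPinG0002970300.01) had its highest mean at initial maturity. It had 1.34, 1.07 and 1.03 CPM at initial maturity, against 0.110, 0.0408 and 0.204 CPM in green fruit, with no overlap (log2 fold change 3.26 ± 0.65, edgeR adjusted p = 0.00202). At discoloration it had 0.867, 0.400 and 0.187 CPM, overlapping green fruit. That comparison was called (2.01 ± 0.67, edgeR adjusted p = 0.0385), but leaving out any 1 of 7 libraries, all but green fruit library 3 and discoloration library 3, took the adjusted p to 0.052 to 0.173, and adding the close pairs together took it to 0.0917.

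The matches to Peroxidase 9 and 40, whose Arabidopsis namesakes act in the tapetum of anthers, numbered 2. Peroxidase 9 (FtPinG0001516600.01) was tested and had 1.43, 3.33 and 3.55 CPM at discoloration, against 15.9, 16.0 and 14.9 CPM in green fruit. It fell at discoloration by 2.49 on the log2 scale (edgeR adjusted p = 0.000452), with no overlap. It was called lower again at initial maturity against discoloration (-1.10, edgeR adjusted p = 0.0324), a call that did not pass 0.05 without discoloration library 2 or 3 or without any 1 initial maturity library (0.0557 to 0.117) or with the close pairs added together (0.236). Of 12 models matching pollen and anther proteins, 4 were tested and 3 fell at discoloration (background 19.9% lower). In all libraries 6 exopolygalacturonase matches were at 0. The summed level of the 12 was 7.14 to 9.59 CPM at discoloration, 19.1 to 28.3 CPM in green fruit and 27.9 to 42.1 CPM at initial maturity. At initial maturity against discoloration 1 of the 4 tested markers was higher and 1 lower (background 16.0% and 20.4%), with a median log2 fold change of 1.44. Their part in the Peroxidase 9 values was not tested. The 3 matches to the root hair enzymes Peroxidase 44 and 62 had no count.

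**Figure D5:**
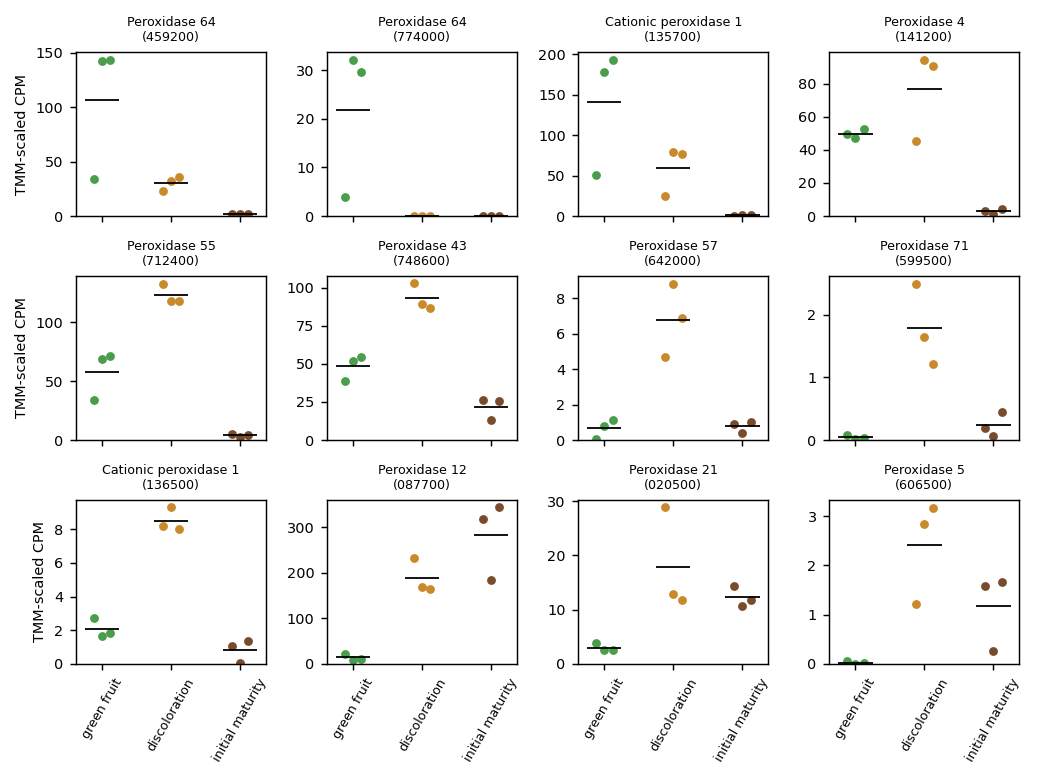
TMM-scaled CPM (y axes, each from 0) of 12 peroxidase genes in the 3 stages (x axes), with a point per library in the order of libraries 1, 2 and 3 and a bar at the mean (n = 3). The top row holds genes that are low at initial maturity, the middle row and cationic peroxidase 1 (FtPinG0003136500.01) genes highest at discoloration, and the bottom row further holds genes that stay above green fruit at initial maturity. Peroxidase 4 (FtPinG0008141200.01) in the top row also has its highest mean at discoloration, as do Peroxidase 21 (FtPinG0006020500.01) and Peroxidase 5 (FtPinG0004606500.01) in the bottom row.

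Several genes without a role given here were abundant until discoloration and low at initial maturity. The pattern of no call in the first interval and lower calls in both others was found in 9 of the 35 tested genes (background 10.1% of all genes tested). These 9 also include Peroxidase 47 and Peroxidase 52 of the lignin-type genes. The pattern depended on the fit. With library totals alone Peroxidase 16, 19 and 52, both Peroxidase 51 genes and FtPinG0003135700.01 were called lower already at discoloration against green fruit (background 68.3% lower). With the close pairs added together Peroxidase 16, 19, 47 and 52 and both Peroxidase 51 genes lost the call at initial maturity against discoloration. Cationic peroxidase 1 is a secreted enzyme described from peanut cell cultures. FtPinG0003135700.01 (chromosome 5, 8552315 to 8561567, minus strand) had 0.0637, 1.71 and 0.837 CPM at initial maturity, against 24.3, 79.2 and 76.2 CPM at discoloration. Every initial maturity library lay below every discoloration library, with a log2 fold change of -6.10 ± 0.89 (edgeR adjusted p = 0.00129). In green fruit it had 50.5, 178 and 193 CPM. Discoloration against green fruit was -1.23 ± 0.68 (edgeR adjusted p = 0.179) and was called without green fruit library 1 (-1.62, adjusted p = 0.0302) and with library totals alone (-2.26, adjusted p = 0.0189).

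Peroxidase 4 of grape was matched by 3 tested genes. FtPinG0008141200.01 (chromosome 5, 47027437 to 47029662) had 3.12, 1.07 and 4.51 CPM at initial maturity, against 45.1, 94.5 and 90.5 CPM at discoloration, a log2 fold change of -4.72 ± 0.48 (edgeR adjusted p = 0.000307). Its green fruit values, 49.4, 47.3 and 52.3 CPM, lay inside the discoloration range. The other 2 fell earlier: FtPinG0007796800.01 had 0.561, 0.489 and 0.607 CPM at discoloration, against 4.04, 14.2 and 12.6 CPM in green fruit (log2 fold change -4.21 ± 0.54, edgeR adjusted p = 0.000496). FtPinG0002448300.01 had 0.714, 0.622 and 1.17 CPM at discoloration, against 2.15, 18.8 and 19.6 CPM in green fruit (-4.01 ± 0.75, edgeR adjusted p = 0.00302; 0.0548 with the close pairs added together). For these 3 the discoloration values of FtPinG0008141200.01 overlapped green fruit and those of the other 2 did not.

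Peroxidase 51 and 46 shared the late fall. Peroxidase 51 (FtPinG0002663500.01) had 6.18, 1.45 and 6.63 CPM at initial maturity, against 18.9, 59.6 and 54.7 CPM at discoloration, with no overlap (log2 fold change -3.22 ± 0.62, edgeR adjusted p = 0.0042; 0.0639 with the close pairs added together). In green fruit it had 41.0, 83.2 and 92.0 CPM, overlapping discoloration (-0.70 ± 0.55, edgeR adjusted p = 0.343; with library totals alone -1.71, adjusted p = 0.0292). Peroxidase 46 (FtPinG0003712900.01) had 0.573, 0.190 and 1.22 CPM at initial maturity, against 6.07, 10.9 and 10.9 CPM at discoloration and 9.87, 6.98 and 6.28 CPM in green fruit. Against discoloration it fell by 3.81 ± 0.51 on the log2 scale (edgeR adjusted p = 0.000856).

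The sharpest early fall outside the lignin-type genes was in another cationic peroxidase 1 gene, FtPinG0000929100.01 on chromosome 8 (38401553 to 38403714). It had 6, 12 and 6 counts at discoloration, against 416, 1870 and 1589 in green fruit. The highest discoloration library had 0.533 CPM, below the lowest green fruit library with 11.4 CPM. The log2 fold change was -6.30 ± 0.63 (edgeR adjusted p = 0.000149), and counts at initial maturity were 0, 4 and 1.

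A group of 5 of the 35 genes was called higher at discoloration against green fruit and lower at initial maturity against discoloration, against 3.09% of all genes tested. The difference between the log2 fold changes of the 2 intervals was tested over all genes, and among the tested peroxidase genes it was called in 15 of 35 (background 20% of all genes tested, 4730 of 23631), in 12 of them with the lower log2 fold change in the second interval. With the close pairs added together it was called in 1 of 39 (background 0.586%), and without the 3 libraries standing apart in 28 of 39 (background 60.6%). Besides Peroxidase 71, the group held Peroxidase 55, 43 and 57 and a cationic peroxidase 1 gene. With the close pairs added together each of these 5 genes lost at least 1 of its 2 calls. With library totals alone Peroxidase 55, Peroxidase 43 and the cationic peroxidase 1 gene were not called at discoloration against green fruit.

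Peroxidase 55 (FtPinG0004712400.01, chromosome 6, 15167839 to 15177247) had 133, 118 and 118 CPM at discoloration, against 33.7, 68.4 and 71.5 CPM in green fruit, and 5.16, 2.46 and 4.44 CPM at initial maturity. The stages did not overlap. The log2 fold change of discoloration against green fruit was 1.09 ± 0.32 (edgeR adjusted p = 0.0226), but 0.06 with library totals alone, and the adjusted p was 0.0634, 0.0535 and 0.0532 without discoloration library 1, 2 or 3 and 0.114 with the close pairs added together. At initial maturity against discoloration it fell by 4.93 ± 0.38 on the log2 scale (edgeR adjusted p = 0.000128), and this call held in each of these fits.

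Peroxidase 43 (FtPinG0002748600.01, chromosome 7, 1624187 to 1625823) had 103.2, 89.2 and 86.3 CPM at discoloration, against 39.0, 52.1 and 54.2 CPM in green fruit, with no overlap. This was a log2 fold change of 0.94 ± 0.26 (edgeR adjusted p = 0.0177), which turned to -0.07 with library totals alone and had an adjusted p of 0.0561 without discoloration library 1 and 0.12 with the close pairs added together. Initial maturity libraries had 26.1, 13.1 and 25.4 CPM, below every other library (log2 fold change against discoloration -2.11 ± 0.27, edgeR adjusted p = 0.00071).

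Peroxidase 57 (FtPinG0005642000.01, chromosome 1, 13182737 to 13184151) was the 1 gene of 23 with that match that could be tested. It had 4.69, 8.84 and 6.87 CPM at discoloration, against 0.0825, 0.796 and 1.12 CPM in green fruit, with no overlap (log2 fold change 3.33 ± 0.68, edgeR adjusted p = 0.00461). At initial maturity it had 0.892, 0.379 and 1.03 CPM and overlapped green fruit (0.19 ± 0.72, edgeR adjusted p = 0.836). Initial maturity lay below every discoloration library (-3.14 ± 0.71, edgeR adjusted p = 0.00869), and with the close pairs added together the adjusted p values of the 2 intervals were 0.0617 and 0.0945.

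Neighbours in 1 array shared the late fall, and 1 of them was also called higher in the first interval. On chromosome 5 between 8504343 and 8561567 lie Peroxidase 52 and cationic peroxidase 1 (FtPinG0003135700.01), both described above as lowest at initial maturity, and 2 further cationic peroxidase 1 genes, of which FtPinG0003136700.01 had no count. The remaining one, FtPinG0003136500.01 (8509817 to 8511142), was the one of them called higher at discoloration, with 8.21, 9.28 and 8.04 CPM, against 2.75, 1.65 and 1.81 CPM in green fruit. The log2 fold change was 2.04 ± 0.54 (edgeR adjusted p = 0.0149), with an adjusted p of 0.0529 without discoloration library 2, 0.0522 without green fruit library 2, 0.0942 with library totals alone and 0.164 with the close pairs added together. The initial maturity values were 1.08, 0.0632 and 1.35 CPM, below every discoloration library (-3.35 ± 0.61, edgeR adjusted p = 0.00331; 0.0598 with the close pairs added together).

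Peroxidase 12 was the family's main gene of maturing seed. FtPinG0004087700.01 (chromosome 3, 42734711 to 42736477, plus strand) had 233, 169 and 164 CPM at discoloration, against 22.6, 8.94 and 11.4 CPM in green fruit. The 2 stages did not overlap, and the log2 fold change was 3.72 ± 0.41 (edgeR adjusted p = 0.00024). At initial maturity it had 317, 185 and 344 CPM, overlapping discoloration (0.58 ± 0.37, edgeR adjusted p = 0.245) and above every green fruit library (4.30 ± 0.42, edgeR adjusted p = 4.05e-05). The markers of maturing seed moved the same way, with 25 of 25 tested models higher at initial maturity than in green fruit (22 with library totals alone, background 8.86%), and in each stage the library standing apart differed in the same direction for both: the markers summed to 269300, 249000 and 248600 CPM at discoloration and 358500, 260300 and 371400 CPM at initial maturity. One late embryogenesis model was at 0 throughout. The part of these tissues in the Peroxidase 12 values was not tested.

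Another 6 genes showed the same calls, higher at discoloration and at initial maturity than in green fruit, with no call between discoloration and initial maturity (7 of 35 in all, background 10% of all genes tested, 2372 of 23631). With library totals alone Peroxidase 10, 20 and 21 lost the call at initial maturity against green fruit. Peroxidase 66 lost that at discoloration against green fruit (edgeR adjusted p = 0.18). The second Peroxidase 12 gene (FtPinG0002087800.01) had 55.7, 48.2 and 44.7 CPM at discoloration, against 14.9, 11.2 and 10.2 CPM in green fruit (log2 fold change 2.03, edgeR adjusted p = 0.000347), and 74.9, 44.7 and 77.0 CPM at initial maturity; initial maturity against discoloration was called without initial maturity library 2 (0.62, adjusted p = 0.0418). Peroxidase 21 (FtPinG0006020500.01) had 28.9, 13.0 and 11.8 CPM at discoloration, against 3.93, 2.51 and 2.48 CPM in green fruit (2.59 ± 0.37, edgeR adjusted p = 0.000789), and 14.3, 10.7 and 11.8 CPM at initial maturity (2.04 ± 0.36 against green fruit, edgeR adjusted p = 0.00105; 0.0591 with library totals alone). Both genes separated green fruit from the later stages without overlap.

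Peroxidase 5 (FtPinG0004606500.01, chromosome 2, 33380781 to 33381888) had 24, 64 and 68 counts at discoloration, against 2, 0 and 1 in green fruit. The summed counts gave a ratio of 102 (95% counting interval 34.3 to 500, counting error only; edgeR adjusted p = 0.000968). Initial maturity libraries held 25, 4 and 26 counts, a ratio of 48.5 to green fruit (15.8 to 243; edgeR adjusted p = 0.0011), with initial maturity library 2 the low one.

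Peroxidase 10 and 20 rose with wider spread. Peroxidase 10 (FtPinG0003250500.01) had 43, 24 and 33 counts at discoloration, against 13, 1 and 0 in green fruit (log2 fold change 3.70 ± 0.94, edgeR adjusted p = 0.0129, and 0.113 with the close pairs added together). The call of this gene at initial maturity against green fruit was lost with library totals alone (2.10, edgeR adjusted p = 0.0536) and with the close pairs added together (0.108). Peroxidase 20 (FtPinG0008292000.01) had 0.918, 9.28 and 8.69 CPM at discoloration, against 1.43, 0.551 and 0.536 CPM in green fruit, and 2.99, 9.29 and 3.22 CPM at initial maturity. Discoloration library 1 lay among the green fruit libraries, and the call (2.92 ± 0.82, edgeR adjusted p = 0.0201) did not pass 0.05 without discoloration library 2 or 3 or green fruit library 2 or 3 (0.0633 to 0.0676) or with the close pairs added together (0.187). Its call at initial maturity against green fruit (2.63 ± 0.82, edgeR adjusted p = 0.0201) was likewise lost without green fruit library 2 or 3 or initial maturity library 2 (0.0624 to 0.0917), with library totals alone (0.143) and with the close pairs added together (0.0927).

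Peroxidase 42 (FtPinG0006206300.01, chromosome 5, 49969270 to 49970805) was abundant at every stage. It had 165, 191 and 157 CPM at initial maturity, against 118, 53.0 and 54.3 CPM in green fruit, and 102, 108 and 108 CPM at discoloration. Initial maturity was higher than green fruit by 1.19 ± 0.30 on the log2 scale (edgeR adjusted p = 0.00727), with no overlap, but the log2 fold change was -0.10 with library totals alone, and the adjusted p was 0.0919 with the close pairs added together. Discoloration against green fruit was not called (0.50 ± 0.30, edgeR adjusted p = 0.212; -0.44 with library totals alone), and without green fruit library 1 both intervals were called higher (0.99, adjusted p = 0.000305, and 0.69, adjusted p = 0.00131).

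An array whose counts did not pass the filter had most of its counts at initial maturity. The 3 Peroxidase 5 genes on chromosome 2 between 60237125 and 60254821 had 22, 0 and 11 counts, 19, 3 and 22 counts, and 26, 2 and 30 counts in the 3 initial maturity libraries, against 0 to 2 counts in every green fruit library. Initial maturity library 2 was the low one for all of them. At discoloration they had 0 to 10 counts. In the fit with no filter on low counts, edgeR called all 3 higher at initial maturity against green fruit (adjusted p = 0.00947, 0.00323 and 0.00208, in the order of the counts above, with 48.9% of all genes called). Without initial maturity library 2, edgeR called FtPinG0000858000.01 and FtPinG0000859400.01 higher at initial maturity against discoloration (log2 fold change 3.97 and 2.52, adjusted p = 0.0222 and 0.0215, with 28.8% of all genes called). Without the 3 libraries standing apart all 3 genes were called higher there (67.6% of all genes called). Of the 10 genes matching Peroxidase 5 of grape, 2 were tested, and the summed level of the 10 was 6.50, 0.758 and 6.25 CPM at initial maturity against 0.550, 0.837 and 0.740 CPM in green fruit.

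The 3 tested genes that edgeR's main fit called in none of the comparisons (background 29.5% of all genes tested) were Peroxidase 5 (FtPinG0009326800.01), Peroxidase 11 (FtPinG0006840200.01) and cationic peroxidase 1 (FtPinG0006420900.01), named after their values were seen. All were low, at 0 to 4.90 CPM. DESeq2 called Peroxidase 11 higher at discoloration against green fruit (log2 fold change 2.67, adjusted p = 0.046) and the cationic peroxidase 1 gene lower at initial maturity against discoloration (-1.75, adjusted p = 0.0183). On library totals alone edgeR called Peroxidase 5 lower at initial maturity against green fruit (-2.47, adjusted p = 0.00231). Peroxidase 11 had 0, 1.33 and 2.38 CPM at discoloration, against 0.385, 0.0816 and 0.102 CPM in green fruit (log2 fold change 2.73, edgeR adjusted p = 0.0787). Without discoloration library 1 its adjusted p was 0.0138 and without green fruit library 1 it was 0.0333. Peroxidase N (FtPinG0003282600.01), whose name lies outside the rule, had 42, 81 and 28 counts at initial maturity, against 2, 5 and 4 at discoloration and 1, 0 and 0 in green fruit. In the main fit it would have been the 1 peroxidase gene called higher in the second interval (log2 fold change 4.18, edgeR adjusted p = 0.00122).

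Genes around the peroxidases in wall chemistry were counted from lists of names, and counts are of tested genes only. They can be read against the shares of all genes tested, 19.5% higher and 19.9% lower at discoloration against green fruit, 16.0% and 20.4% at initial maturity against discoloration, and 28.3% and 32.5% at initial maturity against green fruit. Monolignol synthesis genes divided at discoloration against green fruit (25 higher and 13 lower of 76) and fell more often than they rose at initial maturity against discoloration (9 higher, 32 lower). Cinnamoyl-CoA reductase 1 (FtPinG0009234700.01), which makes hydroxycinnamaldehydes for lignin, had 88.1, 33.4 and 96.7 CPM at initial maturity against 888, 718 and 700 CPM at discoloration, a log2 fold change of -3.40 ± 0.55 (edgeR adjusted p = 0.00189). A phenylalanine ammonia-lyase (FtPinG0005713400.01), the entry enzyme of the pathway, fell by 3.08 ± 0.35 on the same scale (edgeR adjusted p = 0.000465). With library totals alone the first of these splits was 12 higher and 29 lower (background 7.74% higher and 68.3% lower).

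Laccases were called lower more often than higher. Some laccases, Laccase-17 among them, are also markers of lignifying cells, so these lists overlap. Of 19 tested laccases, 2 were higher and 11 lower at discoloration against green fruit, and 2 higher and 14 lower at initial maturity against green fruit. With library totals alone the first split was 1 higher and 13 lower (background 7.74% and 68.3%). The second was then 2 higher and 17 lower (background 8.86% and 73.7%). Laccase-17 (FtPinG0008390000.01), a lignin laccase in Arabidopsis, had 0.204, 0.444 and 0.701 CPM at discoloration, against 18.6, 117 and 126 CPM in green fruit, a log2 fold change of -7.57 ± 1.02 (edgeR adjusted p = 0.000614). The most abundant, Laccase-14 (FtPinG0009029700.01), was not called in any comparison. Of 12 tested secondary wall regulators 1 was higher and 7 lower at discoloration against green fruit, among them a NAC domain-containing protein 73 gene (FtPinG0001415000.01, -5.43 ± 0.78, edgeR adjusted p = 0.000831), while the other match to that name (FtPinG0009656900.01) was not called there (0.33, adjusted p = 0.428). Of 13 tested extensin and wall structural genes 0 were higher and 6 lower in that comparison. With library totals alone 0 regulators were higher and 9 lower there, and 0 extensin and wall structural genes were higher and 12 lower. The background of that fit was 7.74% higher and 68.3% lower.

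Genes that supply or remove hydrogen peroxide moved both ways. Of 34 tested supply genes (oxidases, superoxide dismutases and germin-like proteins), 12 were higher and 10 lower at discoloration against green fruit, and 4 higher and 21 lower with library totals alone (background 7.74% and 68.3%). A copper-zinc superoxide dismutase (FtPinG0006372000.01), which turns superoxide into hydrogen peroxide, had 1374, 1514 and 1504 CPM at discoloration, against 186, 82.2 and 83.9 CPM in green fruit (log2 fold change 3.64 ± 0.41, edgeR adjusted p = 0.000247). Of 21 tested catalases, ascorbate and glutathione peroxidases and peroxiredoxins, 4 were higher and 6 lower (1 and 14 with library totals alone, background 7.74% and 68.3%). The seed enzyme 1-Cys peroxiredoxin (FtPinG0007446600.01) had 3431, 4393 and 4384 CPM at discoloration, against 1073, 476 and 492 CPM in green fruit (2.58 ± 0.45, edgeR adjusted p = 0.00213). Of 38 tested dirigent and Casparian strip genes 8 were higher and 10 lower, with 3 and 24 for library totals alone (background 7.74% and 68.3%).

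Seed coat markers (anthocyanidin and leucoanthocyanidin reductases and TRANSPARENT TESTA 12 transporters, 33 tested of 66) were higher in 11 and lower in 4 models at discoloration against green fruit, and higher in 5 and lower in 16 at initial maturity against discoloration. With library totals alone the first split was 6 higher and 13 lower (background 7.74% and 68.3%). Their summed level was 955 to 1112 CPM at discoloration and 753 to 797 CPM at initial maturity, against 466 to 693 CPM in green fruit, and 11 of the 66 were at 0, among them 10 TRANSPARENT TESTA 12 matches. Without the TRANSPARENT TESTA 12 matches only 5 models were left, 4 of them tested. Of these, 1 was higher and 0 lower at discoloration against green fruit, and 1 higher and 2 lower at initial maturity against discoloration. Those 5 models summed to 415.7 to 559.8 CPM at discoloration and 245.8 to 347.5 CPM at initial maturity. In green fruit they summed to 185.2 to 382.2 CPM, a range that holds the initial maturity values. Of the 21 green tissue markers (chlorophyll a-b binding proteins and Rubisco small subunits) 0 rose and 18 fell at initial maturity against discoloration, with sums of 58.5 to 70.1 CPM at initial maturity against 608 to 865 CPM at discoloration. Their part in the peroxidase values was not tested.

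The deposited variant tables placed 47 SNP sites in 27 peroxidase genes, 0.475 per kb of gene length against 0.579 over all gene models, and 13 InDel sites in 5 genes, 0.131 per kb against 0.147. Sites are called from RNA reads, so genes with few reads can show few. Within the 35 tested genes the SNP density was 0.748 per kb, against 0.617 over all tested gene models. Of the 47 SNP sites 27 had calls that differed among the 9 samples, against 11533 of 23364 sites over all gene models. All 9 samples were called as the alternative allele at 12 of the 13 InDel sites, against 4578 of 5940 over all gene models. Of these 12 sites 5 lay in Peroxidase 52 (FtPinG0003135900.01) and 3 in Peroxidase 66 (FtPinG0002970300.01).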

How the data were processed

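The authors deposited read counts per gene, which the file headers name as such, and FPKM values. The count per gene length and library total gave 90.8% of FPKM values above 0 back, within a relative tolerance of 0.001. Adjusted p-values of the authors' own test come from the authors' deposited table, and genotype calls and gene positions from the deposited variant and description files. Each variant table also has columns that match no sample, 18 in all, which were not used. The submitters' processing notes name Bowtie2 2.0.6 and TopHat2 2.0.12. Not given in the sources used here are the counting program, genome build and annotation. Per the labels' protocols the library kit was Illumina TruSeq RNA, which does not mark strand.

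Counts were tested with edgeR 4.0.16 (TMM, filterByExpr with minimum count 10, glmQLFit and glmQLFTest) in R 4.3.3, with all 9 libraries in 1 fit on stage. The filter left 23631 of 33931 genes, and p-values were adjusted over these by Benjamini-Hochberg with a threshold of 0.05. Alternatives used DESeq2 1.42.0, limma 3.58.1 on log2(FPKM + 1) and log2(FPKM + 0.1), library totals without TMM factors, no filter, a replicate block and leaving out each library; adding the close pairs together and leaving out the 3 libraries standing apart were chosen after seeing the data.

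The peroxidase genes and all gene lists were chosen with earlier results of these data known. Genes with values are the 8 with the highest mean FPKM, the 5 highest and 5 lowest fold changes among called genes of each comparison, up to 6 past the F test with the highest mean at discoloration, and the 2 with the highest FPKM of each pathway list. From the lists' most abundant genes only some are given in full. Groups with counts of 5 or fewer were named after their values were seen. No sequence is printed, since none was in the files used here.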

Additional observations from a re-analysis of the deposited data

How the results depend on the processing

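Counts of called peroxidase genes moved by more than 1.5 times in fits on fewer libraries. With the close pairs added together 11, 7 and 1 genes were called for discoloration against green fruit, initial maturity against discoloration and the difference between the intervals, and 34, 29 and 28 without the 3 libraries standing apart, where the main counts were 21, 17 and 15. Leaving out each library in turn gave 16 to 26, 15 to 21 and 10 to 20, and 28 to 35 for initial maturity against green fruit (main count 30) and 31 to 36 for the F test (main count 31). The share of all genes called moved with these counts, over 27.7% to 51.4%, 21.9% to 50.4%, 8.135% to 33.15%, 52.1% to 68.9% and 56.5% to 75.2%. With DESeq2, library totals, FPKM, no filter and the 5 peroxidase names outside the rule, the 5 counts stayed within 1.5 times. Directions turned with the scaling. Peroxidase 42 at initial maturity against green fruit was -0.10 with library totals and -0.044 with either FPKM fit, and its value at discoloration against green fruit, not called, turned to -0.44 and -0.38. Peroxidase 43 at discoloration against green fruit was -0.072 with library totals and -0.034 with either FPKM fit, and Peroxidase 46 was -0.66 with log2(FPKM + 1). The log2 ratio of the summed family level for discoloration over green fruit, 0.13 in TMM-scaled CPM, was -0.89 for FPKM and -0.89 for the share of counts; for initial maturity over green fruit, -0.44, it was -1.70 and -1.80. The cause was not tested. At 20 and 100 kb the tandem groups held 39 and 57 genes, against 53 at 50 kb.

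Deviations of same-numbered libraries from their stage means correlated at -0.151 to 0.186. Differently numbered libraries were not set beside them, so these values cannot decide whether replicate numbers pair the libraries. With the replicate block 20, 16, 28, 15 and 30 genes were called (21, 17, 30, 15 and 31 without it), beside 35.9%, 33.2%, 58.7%, 17.3% and 61.8% of all genes, and among named genes cationic peroxidase 1 (FtPinG0003135700.01) gained a call at discoloration against green fruit (adjusted p = 0.023) while Peroxidase 66 (0.0661) and Peroxidase 20 (0.0639; 0.0544 at initial maturity against green fruit), Peroxidase 9 (0.0615) and Peroxidase 72 (0.0621) lost one. Genes with under 10 counts in every library limit what can be said of 53 of the 99 genes.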
